A study of Homo sapiens with 6 samples.

Results

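The genes described here are the ZNF zinc finger genes that changed when Hep3B cells were moved to low oxygen. They are the entries of the authors' deposited table with an Ensembl gene identifier and a symbol of ZNF followed by a digit, 44 of 2488 entries with such an identifier and of 2681 entries in all. Hep3B is an established human hepatocellular carcinoma line. Cells stayed for 24 hours at 20% oxygen (normoxia, n = 3) or at 1% oxygen (hypoxia, n = 3), and libraries made from their total RNA with an mRNA kit were sequenced to measure the effect of hypoxia on gene expression. The labels give all 6 samples the genotype WT, DMEM medium with 10% serum, and a treatment entry that reads "genetic modification" without naming a gene. The protocol speaks of RNA from subclones. Whether each sample was its own culture is not stated, and the p-values given here reflect the spread among these 6 samples, and that spread may be technical.

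Most ZNF genes encode DNA-binding proteins built from repeated C2H2 fingers, short loops in which a pair of cysteines and a pair of histidines hold a zinc ion. The largest branch also carries a KRAB box, which recruits the corepressor TRIM28 and, through it, enzymes that write repressive chromatin at genes and at transposable elements. Many KRAB genes stand in tandem arrays on chromosome 19 that arose by gene duplication.

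The table lists only entries selected as changed. In the authors' deposited table no false discovery rate exceeds 0.00999, and every log2 fold change is at least 1 in size. A ZNF gene without an entry can be unchanged, little changed or not expressed, and is not analysed here. The members closest to the fold limit are ZNF528 and ZNF398, with log2 fold changes of 1.01 and -1.01 in the authors' deposited table, and those closest to the limit on the false discovery rate are ZNF562 and ZNF684, at 0.00832 and 0.00831. Of 514 protein-coding ZNF genes in the GENCODE 29 annotation, which may not be the authors' annotation, 44 were listed.

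Of the 44 ZNF genes 13 were higher and 31 lower at 1% oxygen, so 70.5% fell. Over all 2675 entries fitted, 56.7% were called higher and 43.3% lower. All 44 passed the quasi-likelihood test of edgeR after Benjamini-Hochberg adjustment (largest adjusted p = 0.0171), as did 100% of all entries, because passing such a test is what put an entry in the table. The median log2 fold change of the 44 was -1.14, against 1.11 over all entries fitted. Because no listed value lies between -1 and 1, a median over listed entries mostly restates which direction is more frequent. By direction, the median was 1.30 for the risers and -1.26 for the fallers, against 1.61 and -1.36 over all entries. DESeq2's own size factors assume that most listed entries stay level, and they moved all entries by a median of -0.78 (log2). With them 5 members were called higher and 31 lower. Over all entries they called 1031 higher and 1157 lower, against 1518 and 1157 in the main fit. No member changed direction, but a shift smaller than the fold limit of 1 leaves little room for that. In bulk RNA a smaller share of cells with a transcript and less of it per cell cannot be told apart.

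The changes were mostly modest. A total of 30 of the 44 lay under 1.5 on the absolute log2 scale, against 51.5% of all entries. Above 2 were 3 risers, ZNF395, ZNF385A and ZNF608, and below -2 were 2 fallers, ZNF689 and ZNF30. The normalized counts of the oxygen groups did not overlap for any of the 44, which was also true of 99.6% of all entries. In FPKM, the authors' length-scaled level, 40 of the 44 had groups that did not overlap, against 96.4% of all entries, and ZNF524, ZNF841, ZNF528 and ZNF562 overlapped.

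**Figure D1:**
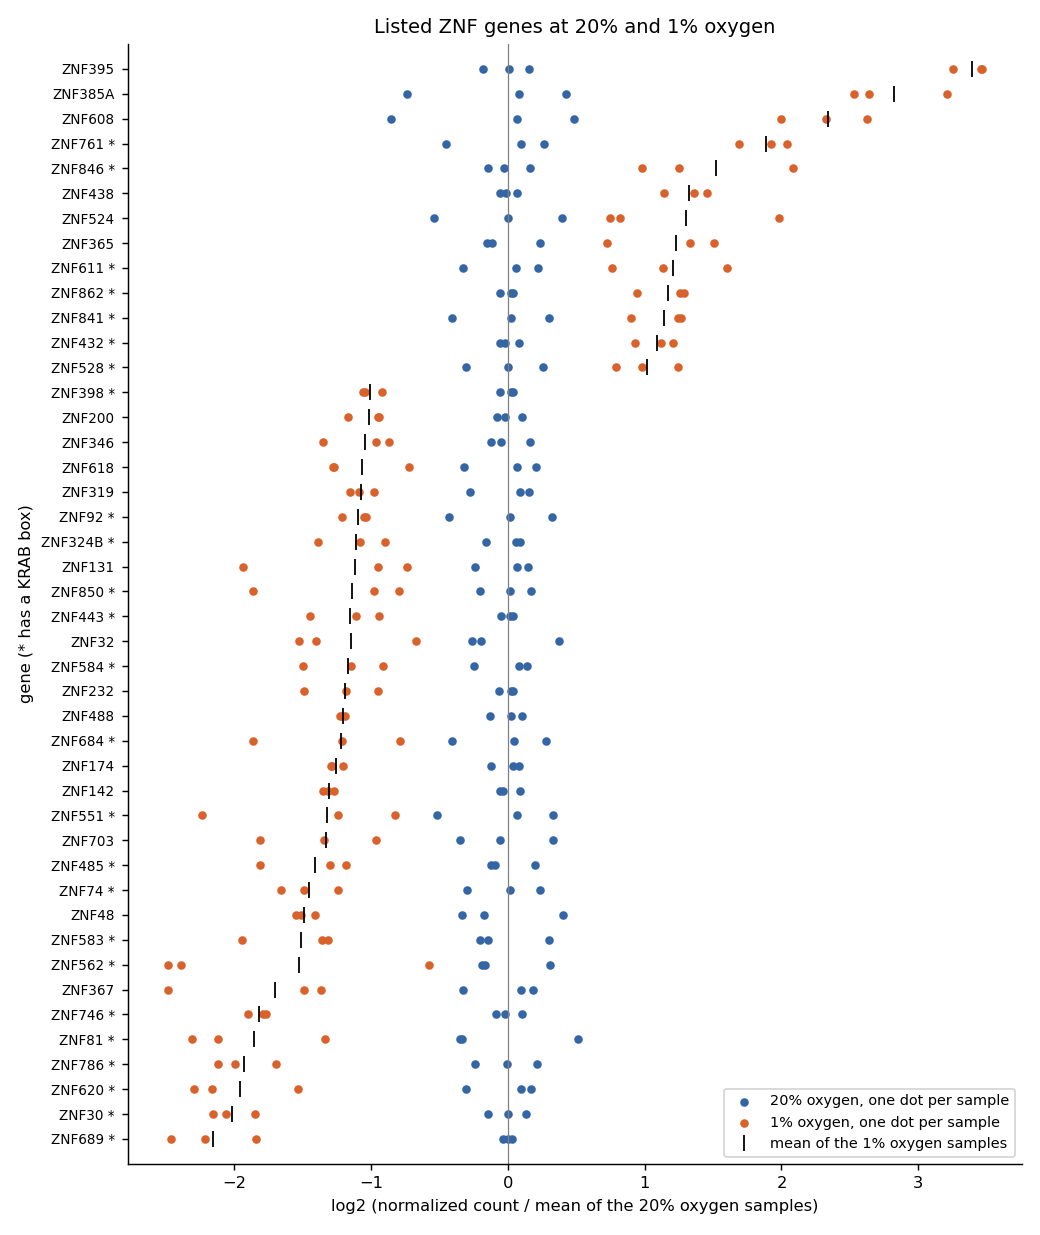
Each dot is the normalized count of 1 sample on a log2 scale relative to the mean of the 20% oxygen samples, for the 44 listed ZNF genes ordered by fold change, with the mean of the 1% oxygen samples as a vertical mark and an asterisk for genes with a KRAB box. The 13 risers stand above the 31 fallers, and ZNF562 has 1 sample at 1% oxygen far to the right of the other two.

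The library depths are not known, since the totals of 5474597 to 10134230 counts cover listed entries only. The 44 genes held between 18899 and 22403 counts per library, or 0.191% to 0.382% of the listed counts. Replicates of a group were far from identical: a chi-square test of their counts gave 13.1 to 269 per degree of freedom. In hypoxia replicate 2 the deviation from the group followed the GC content of the transcript (Pearson's r = 0.61 and Spearman's rho = 0.62 across 2252 entries, which share these libraries). Over the 44 ZNF genes r was 0.27 and rho 0.28. It was the lowest hypoxia library for 17 of the 44 ZNF genes and the highest for 16, against 39.7% and 46.8% of all entries. Leaving it out kept all 13 and all 31 calls, as it kept all 1518 rises and 1157 falls of the whole table. All 6 genes fixed as a check of the oxygen response rose, from ADM, a peptide hormone gene (8.10-fold), to ANGPTL4, a secreted lipase inhibitor (95.6-fold). Of 10 hepatocyte markers 5 had an entry, and 4 of these fell, where 43.3% of all entries did. On the log2 scale ALB fell by 1.28, FGB by 1.92, AFP by 2.05 and APOB by 2.10, while TF rose by 1.66. ALB went from 370.3 ± 61 to 152 ± 7.83 normalized counts and AFP from 312 ± 89 to 75.4 ± 16.3 (SD, n = 3). None of 6 fibroblast and 5 leukocyte markers had an entry, and of 4 endothelial markers CDH5 did (7.15-fold higher). The part of these markers' changes in the ZNF results was not tested.

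The largest riser was ZNF395, a DNA-binding protein first described as papillomavirus binding factor and linked to hypoxia in earlier work on other tumour cells. Its normalized counts were 770.2, 878 and 975 in the normoxia samples and 9603, 8341 and 9656 in the hypoxia samples. All hypoxia samples lay far above all normoxia samples. It rose 10.5-fold, from a mean of 874 to 9199.9 ± 744 (SD, n = 3; log2 fold change 3.39, SE 0.15, edgeR adjusted p = 4.23e-06). Of its longest annotated transcript, 42.1% is shared with other genes, the largest part with its neighbour FBXO16. Reads from the shared sequence could belong to another gene.

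ZNF385A, also called HZF, is a p53 target that binds p53 and favours its cell cycle arrest genes over its death genes. Hep3B cells are known to lack p53. Normalized counts were 257, 203 and 115 at 20% oxygen and 1109.9, 1770.4 and 1195 at 1% oxygen, a 7.09-fold rise (log2 fold change 2.83, SE 0.33, edgeR adjusted p = 0.000126). The groups were far apart, and the normoxia samples were themselves uneven. The gene has 3 fingers and no KRAB box, and none of its longest transcript is shared with another gene. It lies on chromosome 12 from 54369133 to 54391298 on the minus strand (GENCODE 29, GRCh38, as for all positions here).

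ZNF608, whose mouse counterpart represses the Rag genes in thymocytes, was the least abundant of the 44 at 20% oxygen. It had 8.52, 21.6 and 16.2 normalized counts in normoxia and 77.4, 61.7 and 95.3 in hypoxia. Its 5.04-fold rise (log2 fold change 2.33, SE 0.38, edgeR adjusted p = 0.000575) rests on 9 to 22 reads per normoxia library. ZNF395, ZNF385A and ZNF608 all lack a KRAB box, as do the next risers of that class: ZNF438 (log2 fold change 1.32, SE 0.19), ZNF524, a telomere-binding protein (1.30, SE 0.38), and ZNF365, a protein of replication fork recovery and genome stability (1.23, SE 0.29).

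ZNF524 was uneven between samples. It had 725, 554 and 379 normalized counts in normoxia and 975, 2183 and 928 in hypoxia, with hypoxia replicate 2 far above the other hypoxia samples. Without that library the log2 fold change was 0.78 and the call remained (edgeR adjusted p = 0.0164). Of the 44 genes ZNF524 has among the highest GC contents (64.9%), and its deviation in hypoxia replicate 2 was 1.20 on the log2 scale. Under TMM scaling over the listed entries its call ended (adjusted p = 0.0718, range over all alternatives 9.8e-05 to 0.17).

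**Figure D2:**
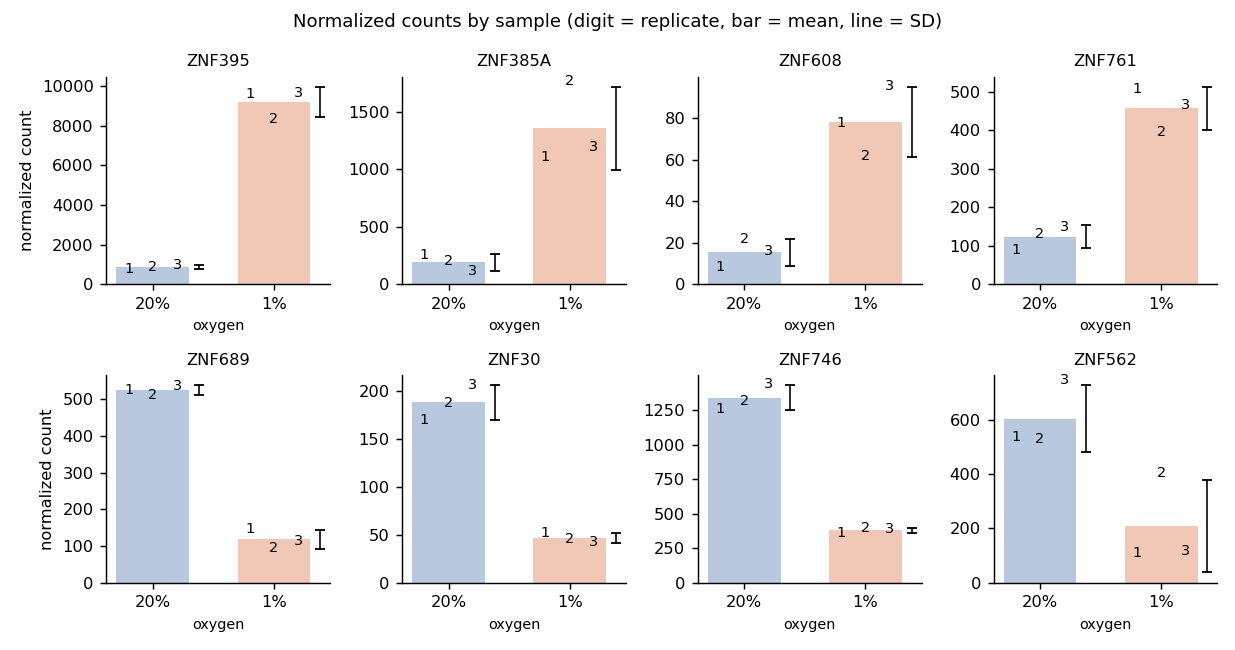
Bars show mean normalized counts at 20% and 1% oxygen for 8 of the ZNF genes, digits mark the replicate numbers at their values, and the line beside each bar is the SD (n = 3). ZNF395, ZNF385A, ZNF608 and ZNF761 rise and ZNF689, ZNF30, ZNF746 and ZNF562 fall, with hypoxia replicate 2 of ZNF562 at 404 against 108 and 115.

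Genes with and without a KRAB box fell in similar shares. By a score of 14 conserved KRAB positions (at least 9 present), 25 of the 44 have a KRAB box, 56.8%, against 64.8% of all 514 annotated ZNF genes. Of these 25, 7 rose and 18 fell (72%), and of the 19 without a KRAB box 6 rose and 13 fell (68.4%), against 43.3% lower over all entries. The 14 KRAB genes on chromosome 19 comprised 6 risers and 8 fallers, and the 11 elsewhere 1 riser and 10 fallers. Off chromosome 19 the 18 genes without a KRAB box comprised 5 risers and 13 fallers. These are counts over a list with no test, and genes of 1 array share ancestry and position.

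On chromosome 19, 5 of those risers follow each other among the listed entries. ZNF432, ZNF841, ZNF528, ZNF611 and ZNF761 stand in that order between 52031379 and 53458261, a span of 1.43 Mb that holds 31 annotated ZNF genes. All 5 listed there were higher at 1% oxygen, and no other listed entry with an Ensembl gene identifier falls in the span. Outside it 8 of the other 39 ZNF genes rose and 31 fell. The remaining 26 ZNF genes of the span had no entry and are not analysed here. This grouping was noticed after the values were seen.

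ZNF761 led this array, with 89.9, 132 and 148 normalized counts at 20% oxygen and 507, 397 and 467 at 1% oxygen, 3.70-fold higher (log2 fold change 1.89, SE 0.24, edgeR adjusted p = 0.000194). ZNF611 had 54.9, 42.1 and 61.4 against 89.5, 116 and 160.4 and rose 2.31-fold. ZNF841 had 393, 530.1 and 645 against 1237, 975 and 1255 and rose 2.21-fold. In counts the groups of all 3 are separate, as are those of 99.6% of all entries. In FPKM the groups of ZNF841 overlap. ZNF432 and ZNF528, which like ZNF841 lie outside the naming rule and were chosen after their values were seen, rose 2.13-fold and 2.02-fold. In FPKM ZNF528 went from 1.25 ± 0.19 to 1.68 ± 0.382 with overlapping groups, a log2 ratio of 0.43. Its call ended with limma on FPKM.

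Reads of these 5 genes may be shared with close relatives. ZNF611 shares 29.2% of its longest transcript with other genes, the largest part with ZNF600. ZNF761 shares 26%, the largest part with ZNF765, and ZNF841 shares 14%, the largest part with ZNF836. In GENCODE 29 the span of ZNF432 also runs over that of ZNF841 on the same strand. With DESeq2's own size factors ZNF761 alone of the 5 was called. TMM scaling, which moved all entries by a median of -0.53, ended the calls of ZNF611 and ZNF528 (adjusted p = 0.0613 for ZNF611, range over all alternatives 0.000733 to 0.248).

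The upstream sequences of 4 of these array genes are shown because the genes moved together and their RefSeq and GENCODE starts are close, beside ZNF608 as a riser from another chromosome and ZNF786 as a KRAB gene that fell. Each is the 250 bases before the RefSeq start (GRCh38.p14), 5′ to 3′ on the gene's strand, and capitals mark ACGTG or GCGTG on either strand, the core letters of the sites that hypoxia-inducible factors bind. The first of these motifs also lies within the palindromic E-box bound by other factors. The windows of ZNF611 and ZNF528 hold neither. The window of the fifth array gene, ZNF432, is not shown because its RefSeq start lies 46900 bases from its GENCODE start, and it holds 1 ACGTG and 1 GCGTG.
ZNF761, chr19:53431734-53431983, plus strand: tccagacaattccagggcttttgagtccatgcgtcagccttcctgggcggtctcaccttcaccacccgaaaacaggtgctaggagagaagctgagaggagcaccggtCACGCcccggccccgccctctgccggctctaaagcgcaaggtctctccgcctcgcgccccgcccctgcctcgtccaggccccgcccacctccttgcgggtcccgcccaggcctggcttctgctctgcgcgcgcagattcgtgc
ZNF611, chr19:52735045-52735294, minus strand: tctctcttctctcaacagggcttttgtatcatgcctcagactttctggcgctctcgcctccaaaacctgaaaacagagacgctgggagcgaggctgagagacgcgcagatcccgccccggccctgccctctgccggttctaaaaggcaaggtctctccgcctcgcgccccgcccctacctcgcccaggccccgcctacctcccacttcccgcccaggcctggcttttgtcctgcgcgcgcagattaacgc
ZNF841, chr19:52095766-52096015, minus strand: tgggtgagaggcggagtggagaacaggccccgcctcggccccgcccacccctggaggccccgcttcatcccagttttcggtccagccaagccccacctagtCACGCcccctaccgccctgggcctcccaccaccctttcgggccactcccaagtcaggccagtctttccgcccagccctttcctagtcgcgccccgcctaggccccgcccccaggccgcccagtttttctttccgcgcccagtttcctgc
ZNF528, chr19:52397599-52397848, plus strand: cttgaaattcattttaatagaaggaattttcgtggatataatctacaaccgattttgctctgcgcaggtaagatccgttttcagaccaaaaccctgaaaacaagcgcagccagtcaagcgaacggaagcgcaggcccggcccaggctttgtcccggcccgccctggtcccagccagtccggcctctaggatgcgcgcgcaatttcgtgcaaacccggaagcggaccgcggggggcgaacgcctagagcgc
ZNF608, chr5:124748825-124749074, minus strand: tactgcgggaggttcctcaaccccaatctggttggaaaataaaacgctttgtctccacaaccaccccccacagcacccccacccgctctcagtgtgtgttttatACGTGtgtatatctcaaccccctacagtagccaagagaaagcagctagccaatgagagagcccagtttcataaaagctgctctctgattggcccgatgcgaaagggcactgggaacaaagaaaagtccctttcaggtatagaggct
ZNF786, chr7:149090719-149090968, minus strand: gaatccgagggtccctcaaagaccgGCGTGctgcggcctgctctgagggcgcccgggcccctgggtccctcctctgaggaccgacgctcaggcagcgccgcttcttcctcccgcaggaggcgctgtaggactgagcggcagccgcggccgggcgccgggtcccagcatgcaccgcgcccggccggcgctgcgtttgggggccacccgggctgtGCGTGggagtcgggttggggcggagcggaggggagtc

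The windows of ZNF761 and ZNF611 were the most alike of the 6. A global alignment gave 78.3% identical columns and a longest shared run of 31 bases, and the other pairs among these 6 windows gave 44.3% to 53.9%. Over the 36 ZNF genes with a window in the RefSeq table, ACGTG was present in 8 (22.2%) and GCGTG in 17 (47.2%), against 18.5% and 32.2% of 34788 promoter windows of the same length. By direction, GCGTG was in 6 of 10 windows of risers and 11 of 26 of fallers, and ACGTG in 2 of 10 and 6 of 26. These tallies leave out the risers ZNF395, ZNF385A and ZNF524 and the fallers ZNF618, ZNF488, ZNF703, ZNF746 and ZNF30, which have no matched window. A match is a run of letters and not a bound site.

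Among all 44, 22 lie within 1 Mb of another, in 8 groups. The 3 listed genes near the long-arm end of chromosome 19, ZNF551, ZNF584 and ZNF324B, all fell, as did the pairs ZNF485 and ZNF32 on chromosome 10, ZNF200 and ZNF174 on chromosome 16, and ZNF48 and ZNF689 farther along chromosome 16. The KRAB array on chromosome 7 between 149069643 and 149867479 was mixed: ZNF786, ZNF398 and ZNF746 fell and ZNF862 rose. ZNF862 went from 234, 219 and 232 to 546, 439.9 and 558 normalized counts, 2.25-fold higher (edgeR adjusted p = 0.000422). On the opposite strand 31.6% of its longest transcript is also annotated, the largest part in AC004877.1. ZNF846, on chromosome 19 beside ZNF562, rose from 36.9, 32.3 and 29.8 to 78.4, 139.9 and 65.2 normalized counts (log2 fold change 1.51, SE 0.35).

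**Figure D3:**
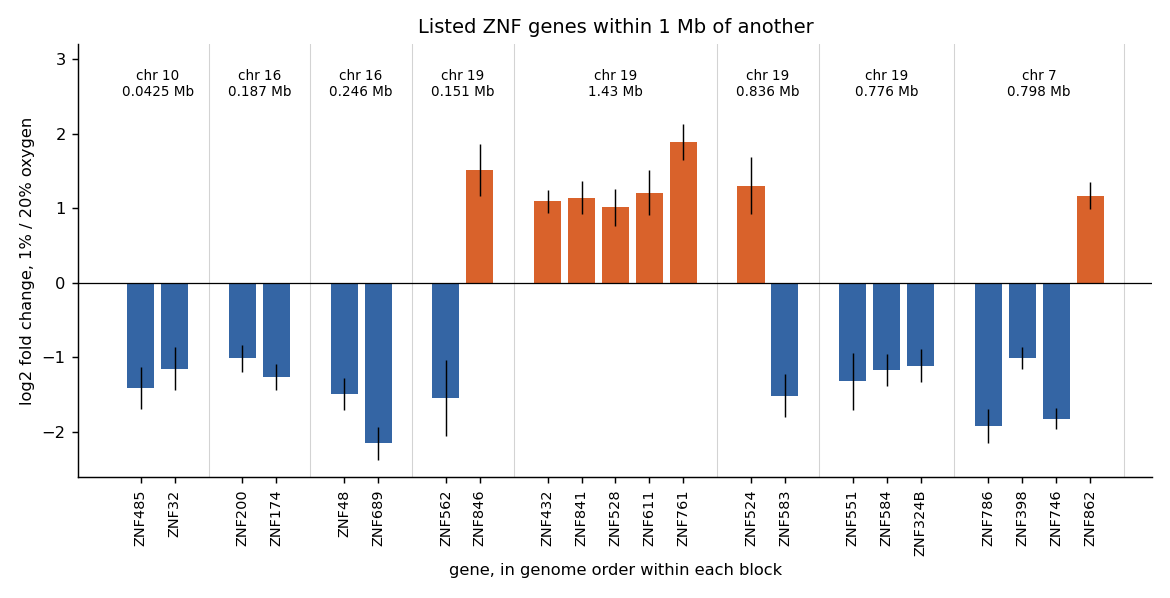
Bars show the log2 fold change (1% over 20% oxygen, lines ± SE) of the 22 ZNF genes that lie within 1 Mb of another listed ZNF gene, in genome order within each of 8 groups. The 5-gene group on chromosome 19 is the only one of the 8 with every bar above 0, and the groups on chromosomes 10 and 16 are below 0 throughout.

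The largest faller was ZNF689, a KRAB gene first described in hepatocellular carcinoma. Its normalized counts were 526, 512 and 537 at 20% oxygen and 146, 94.9 and 113 at 1% oxygen. The normoxia samples were nearly equal and the hypoxia samples all far below them. It fell by 2.15 on the log2 scale (SE 0.22, edgeR adjusted p = 6.32e-05). ZNF30, a KRAB gene with 16 fingers on chromosome 19, went from 170.3, 188 and 206 to 52.3, 45.1 and 42.1 and fell by 2.01 (SE 0.23). ZNF620 fell by 1.94 from 58.4 ± 9.75 normalized counts, on 10 to 20 reads per hypoxia library.

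ZNF746, known as PARIS, is a parkin substrate that represses the gene of the mitochondrial coactivator PGC-1alpha. It had 1259, 1317 and 1437 normalized counts in normoxia and 358, 393 and 387 in hypoxia, with little spread in either group. It fell by 1.82 on the log2 scale (SE 0.14, edgeR adjusted p = 2.64e-05), the smallest adjusted p among the 31 fallers. ZNF786, in the same group of genes on chromosome 7, had 287, 245 and 335 against 66.4, 72.3 and 89.2 and fell by 1.92. ZNF398, a SMAD cofactor in human pluripotent cells, was among the 3 most even of the 44 genes, at 728, 738 and 688 against 344, 347 and 379, a fall of 1.01.

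Fallers without a KRAB box numbered 13. ZNF703, a corepressor amplified in luminal breast cancer, had 1573, 1202 and 983 normalized counts in normoxia and 493, 642 and 357 in hypoxia and fell by 1.33 (SE 0.26, edgeR adjusted p = 0.00151). ZNF346, which binds double-stranded RNA, fell by 1.05 from 581 ± 61.3 normalized counts. ZNF488, whose mouse counterpart promotes oligodendrocyte differentiation, went from 243, 286 and 271 to 115, 117 and 114. ZNF142, with 31 fingers the longest array of the 44, went from 1055, 968 and 950.1 to 389, 410.3 and 399 and fell by 1.31 (SE 0.14). ZNF367 fell by 1.70, and its hypoxia samples were at 478, 221 and 440.2, with replicate 2 lowest. The 17 fallers outside the naming rule fell by between 1.01 and 1.51.

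Counts and FPKM ordered the samples differently for ZNF562 and ZNF81. ZNF562 had 538, 529 and 746 normalized counts in normoxia and 108, 404 and 115 in hypoxia, so hypoxia replicate 2 was highest of its group. In FPKM hypoxia replicate 2 was the lowest of its group: 1.32, 0.862 and 1.92, against 1.70, 1.80 and 2.82 in normoxia, and the groups overlapped. From counts ZNF562 fell by 1.54 (SE 0.51, edgeR adjusted p = 0.0171, range over all alternatives 2.53e-07 to 0.101), and the log2 ratio of mean FPKM was -0.62. Without hypoxia replicate 2 it fell by 2.44. The call ended without hypoxia replicate 1 or 3 (adjusted p = 0.0501 for each) and with limma on FPKM. For ZNF81, on the X chromosome, the normoxia counts were 269.7, 267 and 486 and FPKM 2.63, 1.57 and 2.07, while the change was alike, -1.85 from counts and -1.75 from FPKM. These were the 2 of 44 genes (4.55%) whose ratio of count to FPKM moved by more than 1 on the log2 scale between samples, against 1.72% of all entries. ZNF562 shares 15.2% of its longest transcript with other genes in the same orientation, the largest part with ZNF561. It shares 27.3% with the opposite strand, the largest part with ZNF561-AS1. Whether counting used strand is not given in the sources used here.

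**Figure D4:**
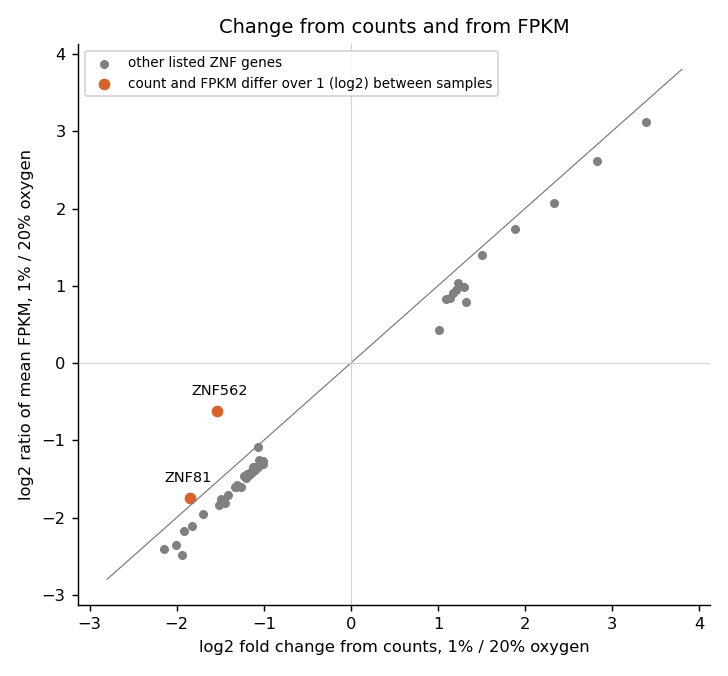
The log2 fold change from counts is on the horizontal axis and the log2 ratio of mean FPKM (1% over 20% oxygen) on the vertical axis for the 44 ZNF genes, with the line of equality. ZNF562 lies above the line, at -1.54 and -0.62, and the bulk of the genes run parallel to the line and a little below it.

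Per length, the ZNF genes were low for listed genes. Their median FPKM was 2.77 at 20% oxygen and 1.47 at 1% oxygen, against 5.10 and 4.53 over all entries. At 20% oxygen 5 genes reached 10 FPKM, and 7 were under 1 FPKM. At 1% oxygen 3 reached 10 FPKM and 16 were under 1 FPKM. In normoxia the highest levels were those of ZNF32 (16.3 ± 2.95 FPKM), ZNF524 (15.3 ± 5.51) and ZNF703 (11.1 ± 1.84). Samples of ZNF524 overlapped those of both other genes, while every ZNF32 sample lay above every ZNF703 sample. In hypoxia ZNF395 led at 54.5 ± 11.8 FPKM, ahead of ZNF524 (30.4 ± 10.9) and ZNF385A (14.3 ± 2.86). The highest ZNF524 sample, at 42.3, passed the lowest ZNF395 sample, at 41.1, and ZNF385A lay below both. ZNF32, the highest at 20% oxygen, went to 6.05 ± 1.42 FPKM, a count-based fall of 1.15. It shares 27.1% of its longest transcript with the opposite strand, the largest part with ZNF32-AS1.

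**Figure D5:**
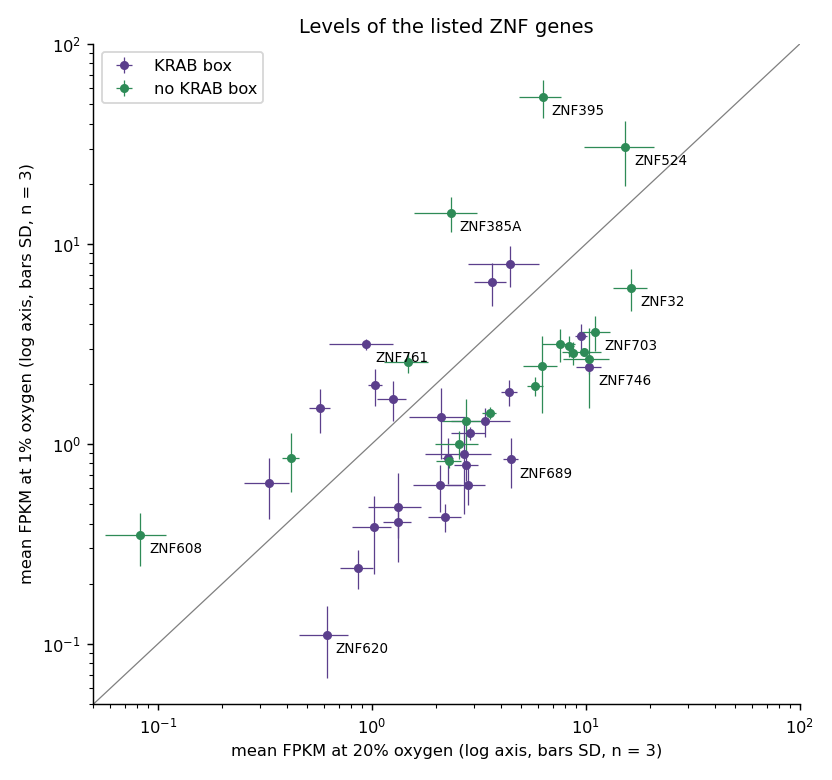
Mean FPKM at 20% oxygen (horizontal) and 1% oxygen (vertical) of the 44 ZNF genes on log axes, bars SD (n = 3), with the line of equal levels and colours for genes with and without a KRAB box. ZNF395 moves from 6.28 to 54.5 FPKM, and most genes lie below the line between 1 and 10 FPKM at 20% oxygen.

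The split was also counted by shared sequence. Of the 34 ZNF genes that share 10% or less of their longest transcript with other genes in the same orientation, 8 rose and 26 fell. Of the 10 that share more, 5 rose and 5 fell, among them ZNF443, which shares 59%, the largest part with ZNF799. With the 10% limit on the opposite strand as well, 31 of the 34 remained, of which 7 rose and 24 fell. Across the 44 genes, which share the 6 libraries, the fold change and the GC content had a Pearson's r of 0.01 and a Spearman's rho of -0.05.

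Other zinc finger families were listed in smaller numbers. Of 21 listed genes with symbols of other C2H2 families 15 rose and 6 fell. Their median log2 fold change was 1.36, against 56.7% higher and a median of 1.11 over all entries. The families were set by symbol, and the 21 include ZFP36, whose fingers are not of the C2H2 class. It rose by 2.80 on the log2 scale. Of 8 listed genes with zinc finger symbols of other classes 2 rose and 6 fell, with a median of -1.33. The same fixed list also covered PHF and RNF symbols. The 1 listed PHF gene rose, and of 7 listed RNF genes 5 rose and 2 fell, with a median of 1.09. All 5 KLF and SP genes rose, led by KLF7 (11-fold) and KLF6 (3.65-fold), transcription factors that bind GC-rich promoters. PRDM16, a regulator of brown fat and stem cells, rose 7.94-fold. ZBTB genes were split, with ZBTB25 and ZBTB22 higher and ZBTB24 and ZBTB49 lower. Of 32 ZNF genes with roles fixed for naming, 4 had an entry. Of 24 partners of KRAB proteins and heterochromatin factors, 4 had an entry and all 4 fell, where 43.3% of all entries did: the maintenance factor UHRF1 by 1.66 on the log2 scale, the histone methyltransferase SUV39H2 by 1.60, and the DNA methyltransferases DNMT3B and DNMT1 by 1.32 and 1.20. TRIM28 and SETDB1 had no entry.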

How the data were processed

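RNA from 6 Hep3B samples was sequenced; per the labels' protocols, total RNA was taken up in TRIzol, residual DNA was digested, and the SMARTER mRNA-seq kit was used for the libraries. The aligner, counter, annotation, build and use of strand: not given in the sources used here. The table was deposited by the authors with whole-number counts per entry without normalization, per the file headers and values. Per the file headers, the authors also gave FPKM for each sample. A deposited false discovery rate (an adjusted p-value) and a deposited log2 fold change stand beside them. Columns were matched to samples by oxygen level and number, and 2 rows without values were dropped.

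The members and lists were chosen with earlier results of these data known. Because the table holds only changed entries, library scales were recovered from the authors' log2 fold changes and counts over 1442 entries above 200 counts (median absolute residual 0.000182, log2), and normalized counts are counts over these scales, so the fold changes are no check of the authors' scaling. In replicate order the normoxia scales were 1.057, 1.021 and 1.108 and those of hypoxia 0.9947, 0.8433 and 0.9972. This replaces TMM, since most listed entries change. Entries whose authors' fold change lay over 1 from that of their counts were left out (6 entries, no ZNF gene). Differences were tested with edgeR 4.0.16 (glmQLFit and glmQLFTest, filterByExpr, which removed 0 of 2675 entries, Benjamini-Hochberg adjustment at 0.05), and SE was taken as the size of the log2 fold change divided by the root of F. The scripts were tested on simulated data. limma 3.58.1 and DESeq2 1.42.0 served as alternatives.

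Named genes are the 8 largest rises and 8 largest falls, the 10 largest of the less frequent direction, the 5 highest by FPKM, those with a fixed role, and the 3 most and 3 least even within groups. Fingers, KRAB boxes, positions and shared 31-base words come from GENCODE 29 transcripts, and the longest transcript of a gene stands for it. Upstream sequences are RefSeq's.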

Additional observations from a re-analysis of the deposited data

How the results depend on the processing

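All 31 falls were called under TMM, under library totals recovered from FPKM, under both DESeq2 fits, with no filter, with at least 50 counts in every library of 1 group and with Ensembl gene entries only. Under TMM, library totals from FPKM, both DESeq2 fits and no filter, all 1157 falls of the whole table were called too. TMM, library totals from FPKM and DESeq2's own size factors also moved entries downward, which favours falls. limma on FPKM called 30 of the 31, and 1156 of the 1157 falls over all entries. An adjusted p under 0.01 also left 30 of the 31. Of the 13 rises, TMM called 10, limma on FPKM 12, an adjusted p under 0.01 12, and DESeq2 with its own size factors 5. Of the 1518 rises over all entries, TMM called 1348 and DESeq2 with its own size factors 1031. limma called 1478 of them on log2(FPKM + 1) and 1474 on log2(FPKM + 0.1). Among the member rises limma ended the call of ZNF528. DESeq2's own size factors ended those of ZNF846, ZNF524, ZNF365, ZNF611, ZNF862, ZNF841, ZNF432 and ZNF528. No member changed direction in any alternative. This is no check, because all entries were listed for a log2 fold change of at least 1 in size in these same data. Leaving out single samples gave 13 rises throughout and 30 to 31 falls, and a median log2 fold change from -1.19 to -1.09. Over all entries it gave 1508 to 1518 rises and 1153 to 1157 falls. The median was -1.67 under TMM, -1.40 under library totals from FPKM and -1.92 with DESeq2's own size factors. With limma it was -0.84 on log2(FPKM + 1) and -1.30 on log2(FPKM + 0.1). In the same order, the median over all entries of the shift of each entry was -0.53, -0.27, -0.78, -0.30 and -0.28. Without normoxia replicate 1 and hypoxia replicate 2, an alternative chosen after seeing the data because their deviations ran together (r = 0.715 across 2323 entries), 13 rises and 31 falls were called and the median was -1.22. With the replicate number as a block, 13 rises and 31 falls were called and the median was -1.17. In both of these alternatives all 1518 rises and 1157 falls of the whole table were called too. Whether the numbers pair the samples is not stated. Deviations of same-numbered samples from their groups had r = -0.49, -0.201 and 0.577. These values cannot decide it, because deviations within a group depend on each other. ZNF608 in normoxia and ZNF620 in hypoxia, with 9 to 22 and 10 to 20 counts per library, have the least depth behind them.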
